A study of Homo sapiens with 24 samples.

Results

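The transition between epithelial and mesenchymal states (EMT) was followed through 10 genes in MIA PaCa-2 cells, a human pancreatic carcinoma line. These were 4 cadherins (CDH1, CDH2, CDH3 and CDH11), 5 transcription factors (SNAI1, SNAI2, ZEB1, ZEB2 and TWIST1) and vimentin (VIM). They were chosen by name, as the rows of a count table whose Ensembl identifiers carry these symbols, and all 10 were found among 60675 identifiers.

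Classical cadherins join neighbouring cells through their outer domains and are tied to actin inside the cell by catenins. E-cadherin, the product of CDH1, is the cadherin of epithelia, and N-cadherin (CDH2) is typical of mesenchymal and neural cells. The SNAI, ZEB and TWIST proteins are DNA-binding factors that act during EMT, and SNAI and ZEB proteins repress CDH1 by binding E-box motifs in its promoter. Vimentin is the intermediate filament of mesenchymal cells.

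Total RNA was sequenced after removal of ribosomal RNA in 24 libraries, 3 in each of 8 groups. C/EBPδ-inducible cells carried a doxycycline-inducible Tet-On construct (pCW57) with the CEBPD cDNA together with mVenus, and were a pool of 3 clones. CTRL cells carried the construct without the cDNA together with mCherry. Both lines were collected at 0, 8, 24 and 48 h of doxycycline at 2 µg/mL. The sample labels list this dose at 0 h as well, whereas the methods of the study describe wells without the drug. The 3 wells of a group were seeded in parallel, so the p-values measure the spread between wells and may reflect technical variation alone. The lines differ in construct and fluorophore, and clones are described for the inducible cells only, so these origins of a difference between the lines cannot be told apart. In bulk RNA, a change in the number of cells that express a gene and a change in its RNA per cell cannot be told apart either.

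The libraries held 12731237 to 22598595 counts, with a median of 18959363.5. The CEBPD gene averaged 3.95 ± 0.247 CPM (counts scaled to library size, SD, n = 3) in CTRL cells at 0 h and 21.6 ± 2.36 CPM in C/EBPδ-inducible cells at 0 h. In the inducible cells it then averaged 249.4 ± 15.3 CPM at 8 h, 307.4 ± 12.6 CPM at 24 h and 204.1 ± 7.16 CPM at 48 h, while its averages in CTRL cells stayed between 1.90 and 4.02 CPM. These counts do not separate the construct from the endogenous gene. Of 8 other ductal and epithelial markers, 6 averaged over 1 CPM in each line, but their summed level was 2277 to 3143 CPM in CTRL libraries and 178.5 to 315.5 CPM in C/EBPδ-inducible libraries, where CFTR was at 0. Of 9 fibroblast markers, 1 averaged over 1 CPM in CTRL cells (sum 449.5 to 690.5 CPM) and 2 did in C/EBPδ-inducible cells (137.9 to 256.4 CPM), with FAP at 0 in both. The 5 endothelial markers summed to 0 to 0.471 CPM in CTRL and 0.477 to 2.72 CPM in C/EBPδ-inducible libraries, and KDR was at 0 in CTRL. The 5 blood cell markers summed to 2.20 to 18.9 CPM in CTRL libraries, with PTPRC and CD3E at 0, and to 1.15 to 6.87 CPM in C/EBPδ-inducible libraries, with CD3E and HBB at 0.

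ZEB1 and ZEB2 messages are known targets of the miR-200 family, which epithelial cells express, and ZEB proteins in turn repress the loci of these miRNAs through E-boxes. The mature sequences (RefSeq, GRCh38.p14) are shown because the 5 members fall into 2 groups by their seed, bases 2 to 8, printed in capitals.
hsa-miR-200b-3p: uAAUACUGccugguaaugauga
hsa-miR-429: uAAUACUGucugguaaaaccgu
hsa-miR-200c-3p: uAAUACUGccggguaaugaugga
hsa-miR-200a-3p: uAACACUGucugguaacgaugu
hsa-miR-141-3p: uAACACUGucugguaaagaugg
The first 3 share the seed AAUACUG and the last 2 share AACACUG. MIR200B, MIR200A and MIR429 lie on chromosome 1 (mature sequences at 1167160 to 1167181, 1167916 to 1167937 and 1169055 to 1169076, plus strand), and MIR200C and MIR141 on chromosome 12 (6963742 to 6963764 and 6964155 to 6964176, plus strand). The libraries did not capture miRNAs as such. MIR200CHG, the host transcript of the chromosome 12 pair, had 5 counts in the 24 libraries together.

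ZEB1 (ENSG00000148516) lies on chromosome 10 at 31318495 to 31529814 on the plus strand of GRCh38. One RefSeq start site of the gene has 2 matches to the E-box CACCTG or its reverse complement CAGGTG within the 250 bases before it. Each is shown in capitals in the 30 bases around it, read on the plus strand.
chr10:31318966-31318995: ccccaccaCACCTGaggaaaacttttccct
chr10:31319119-31319148: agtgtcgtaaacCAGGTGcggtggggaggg
The first match begins 242 bases and the second 85 bases before that start. Another start site of ZEB1 had 1 such match, 57 bases before it, and the remaining ZEB1 start sites had none. Of 34788 windows of this length in the RefSeq table, 17.5% held at least 1 match, so a match on its own is common. The C/EBP motif TTGCGNAA, read on both strands, was in 0.756% of windows and in none of those of ZEB1, ZEB2, VIM or CDH2. CDH1, CDH3, CDH11, SNAI1, SNAI2 and TWIST1 had no window among these, so their promoters were not searched for any of the motifs. The CCAAT box, also read on both strands, was in 32% of windows and in those of CDH2, 67 and 76 bases before 2 of its starts.

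The members covered a wide range of expression. Per length, VIM averaged 1212 RPKM (counts per length and depth) over the 24 libraries and had the highest mean CPM of all genes. ZEB1 followed at 15.6 RPKM, SNAI1 at 2.29 RPKM, SNAI2 at 0.476 RPKM, CDH1 at 0.290 RPKM and CDH3 at 0.0759 RPKM. The ranges of SNAI2, CDH1 and CDH3 over libraries overlapped, from 0.0171 to 1.47, 0 to 1.02 and 0.00746 to 0.443 RPKM. CDH2, TWIST1, ZEB2 and CDH11 were all below 0.01 RPKM on average.

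**Figure D1:**
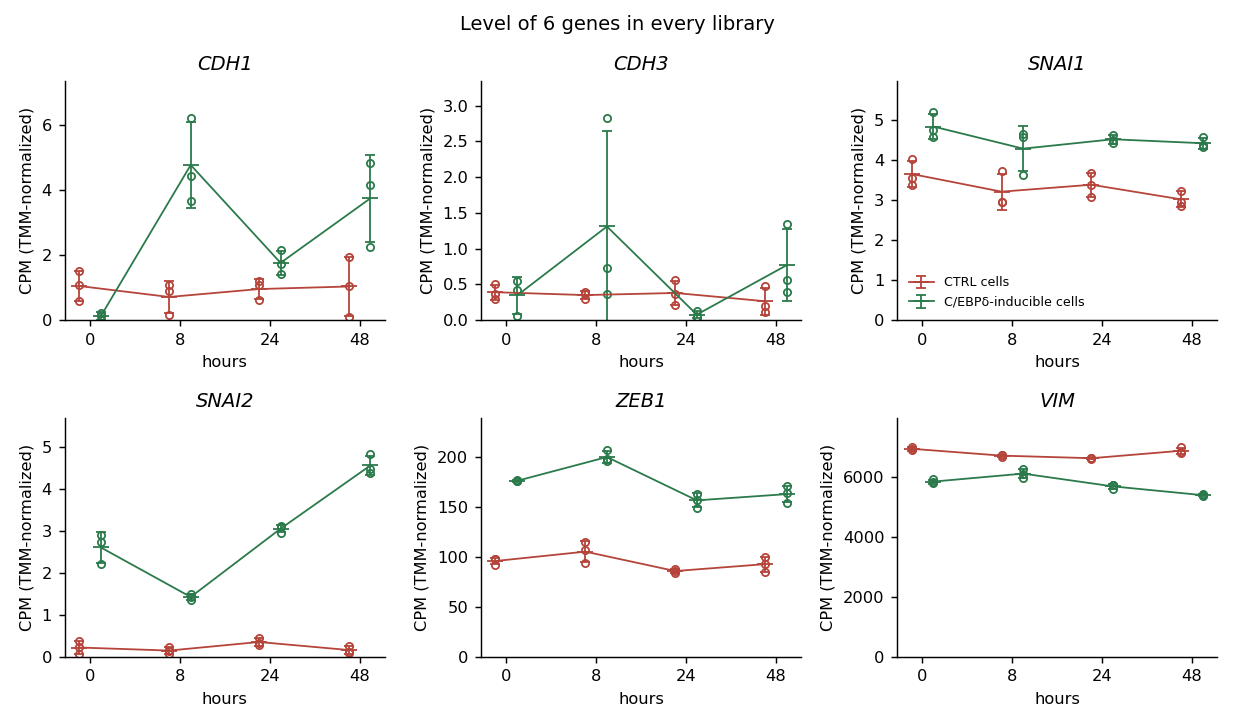
Level of CDH1, CDH3, SNAI1, SNAI2, ZEB1 and VIM in CPM (TMM-normalized, linear axes from 0) at 0, 8, 24 and 48 h (times evenly spaced on the axis). Open circles are libraries, and dashes and bars are the mean and SD of 3 libraries, with bars that would pass below 0 ending at the axis; CDH1 in C/EBPδ-inducible cells went from 0.121 CPM at 0 h to 4.76 CPM at 8 h, and VIM was at least 5354 CPM in every library.

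The first comparison asked how the lines differed at each time. At 0 h C/EBPδ-inducible cells had less CDH1 and VIM and more ZEB1 and SNAI2 RNA than CTRL cells. From 8 h on, CDH1 was higher, not lower, in C/EBPδ-inducible cells, while ZEB1 and SNAI2 stayed higher and VIM stayed lower. A gene was called where its p from the quasi-likelihood test of edgeR, adjusted by Benjamini-Hochberg over all genes, was below 0.01. By this measure 4 of 5 tested members were called at 0 h (43.9% of all tested genes), 4 of 5 at 8 h (31.8%), 4 of 5 at 24 h (46.9%) and 5 of 5 at 48 h (38.3%). Only genes that passed a filter on low counts were tested. SNAI2 passed it only through C/EBPδ-inducible cells, and so did CDH1 at 8 h and 48 h, where it was high in that line. CDH1 at 0 h passed it only through CTRL cells. The number of members called is therefore a description. Over all genes the median difference on the log2 scale was between 0.0040 and 0.0098 in these comparisons.

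CDH1 (ENSG00000039068, chromosome 16, 68737292 to 68835537, plus strand) was a gene of low counts. The 3 libraries of C/EBPδ-inducible cells held 0, 3 and 4 CDH1 counts at 0 h, and those of CTRL cells held 19, 25 and 11. No library of one line reached the other, and CDH1 was 8.24-fold lower in C/EBPδ-inducible cells (log2 fold change −3.04, SE 0.56, adjusted p = 0.000126, edgeR). Without 1 library the log2 fold change was −3.71 to −2.51, the first without C/EBPδ-inducible replicate 3. At 8 h the C/EBPδ-inducible libraries held 84, 70 and 79 counts and the CTRL libraries 3, 18 and 16, and the lines again did not overlap but in the other order (log2 fold change 2.76, SE 0.40, adjusted p = 0.000166, edgeR).

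At 24 h CDH1 counts were 28, 45 and 39 in C/EBPδ-inducible cells and 20, 26 and 13 in CTRL cells, a small separation (log2 fold change 0.88, SE 0.27, adjusted p = 0.00743, edgeR). At 48 h they were 85, 52 and 71 in C/EBPδ-inducible cells and 2, 33 and 20 in CTRL cells (log2 fold change 1.88, SE 0.48, adjusted p = 0.00526, edgeR). Neither of these calls held in DESeq2 (adjusted p = 0.0271 at 24 h and 0.118 at 48 h). Leaving out 1 library at a time, the 24 h call was lost without CTRL replicate 1 or 3 or C/EBPδ-inducible replicate 2 or 3 (log2 fold change 0.63 to 1.08 over all 6, highest adjusted p = 0.0637, edgeR). The 48 h call was lost without CTRL replicate 3 or C/EBPδ-inducible replicate 1 or 3 (1.29 to 2.67, the latter without CTRL replicate 2, highest adjusted p = 0.0373, edgeR).

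Other epithelial genes also differed between libraries of one group. MAL2, a membrane protein of polarized epithelia, was at 0 counts in 6 of the 24 libraries and at 6 to 51 counts in the other 18. The 6 libraries were CTRL replicate 1 at 8 h, CTRL replicate 1 at 48 h, C/EBPδ-inducible replicates 2 and 3 at 0 h, and C/EBPδ-inducible replicates 1 and 3 at 24 h. EPCAM (an epithelial adhesion protein), ESRP1 (a splicing factor of epithelia), GRHL2 (a transcription factor of epithelia) and ST14 (matriptase, an epithelial protease) were also low in most of these. Some libraries with MAL2 were low in them too. EPCAM was at 3 counts in C/EBPδ-inducible replicate 3 at 8 h, and ST14 at 1 in CTRL replicate 3 at 24 h. MAL2 and ST14 were chosen after their values were seen.

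Among CTRL libraries, CDH1 was low in the 2 where these genes were low or absent. It had 3 and 2 counts in the 2 CTRL libraries without MAL2 and 11 to 33 counts in the other 10. Where MAL2 was present, the order varied with time. The CTRL library with most MAL2 counts held the fewest CDH1 counts at 0 h (45 and 11) and 24 h (42 and 13). The most MAL2 and the most CDH1 counts fell together at 8 h (31 and 18) and 48 h (51 and 33). In C/EBPδ-inducible cells CDH1 also went with these genes in part only. At 0 h, replicate 1 held 43 EPCAM and 29 MAL2 counts but 0 CDH1 counts. At 24 h, replicates 1 and 3 held 28 and 39 CDH1 counts with MAL2 at 0. At 8, 24 and 48 h, however, the library with most MAL2 counts also held most CDH1 counts. They were replicates 1, 2 and 1, with 36 and 84, 39 and 45, and 47 and 85 counts. These are counts without regard to depth. Scaled to library size, CDH1 at 8 h was highest in replicate 3 (6.21 CPM, against 4.42 CPM in replicate 1). The 4 inducible libraries without MAL2 were at 0 h and 24 h, where CDH1 averaged less than at 8 h and 48 h. Without CTRL replicate 1 at 8 h the difference between the lines was 2.22 on the log2 scale (adjusted p = 4.3e-06, edgeR), and without CTRL replicate 1 at 48 h it was 1.29 (adjusted p = 0.00214, edgeR). The part of these genes in the CDH1 differences was not otherwise tested, and neither was whether such low counts include reads from other samples.

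**Figure D2:**
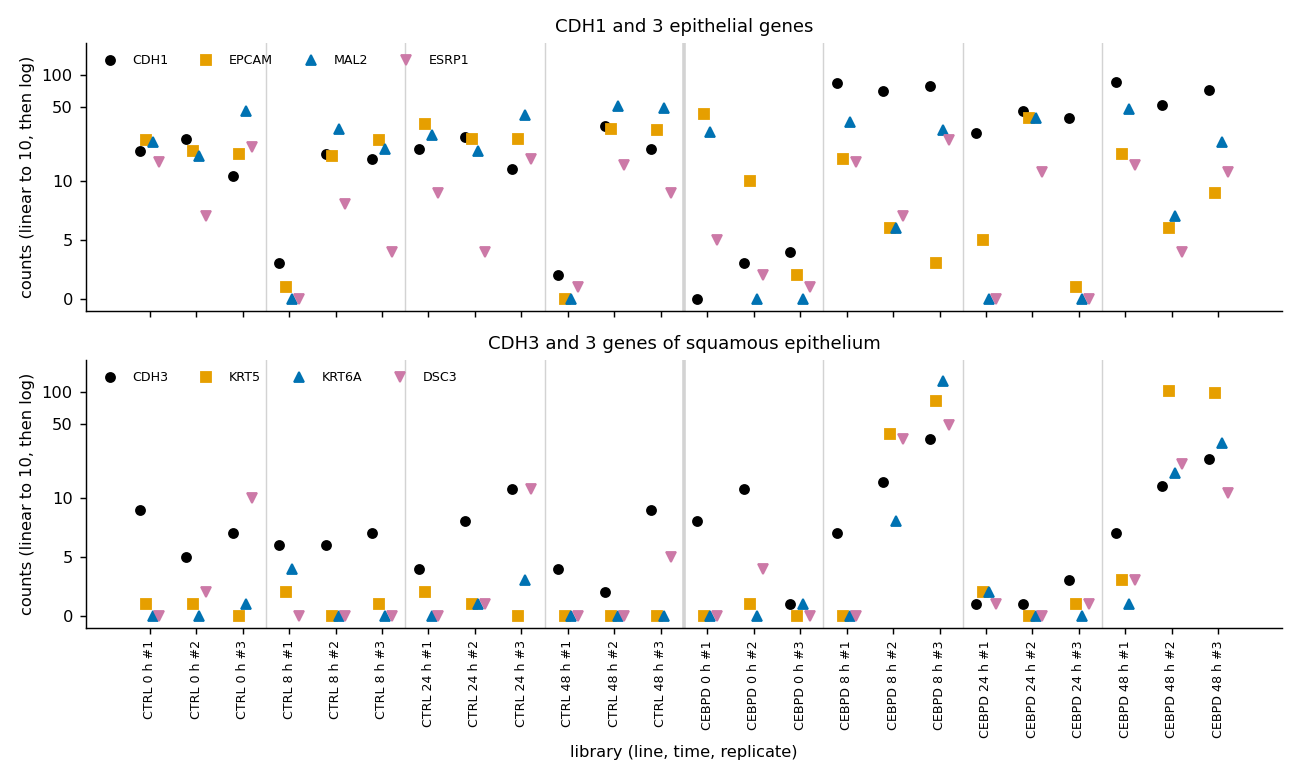
Counts per library (linear up to 10 and logarithmic above) of CDH1 with EPCAM, MAL2 and ESRP1 in the upper panel, and of CDH3 with KRT5, KRT6A and DSC3 in the lower, with thin lines between groups and a thick line between the lines. MAL2 is at 0 in 6 libraries, CDH1 is at 28 or more in each C/EBPδ-inducible library from 8 h on, and KRT5 is at 40 or more in 4 libraries.

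SNAI2 (ENSG00000019549, chromosome 8, 48917598 to 48921740, minus strand), which encodes the repressor Slug, was at the edge of detection in CTRL cells. The 12 CTRL libraries held 1 to 10 counts each, or 0.0561 to 0.457 CPM. The C/EBPδ-inducible libraries had 2.72, 2.89 and 2.20 CPM at 0 h, and no library of the 12 was as low as any CTRL library. SNAI2 was higher by 3.50 on the log2 scale at 0 h (SE 0.36, adjusted p = 8.47e-08, edgeR) and by 4.77 at 48 h (SE 0.29, adjusted p = 1.28e-08, edgeR), with 3.21 at 8 h and 3.08 at 24 h between. Without CTRL replicate 3 at 0 h the first difference was 4.10. It passed the filter on low counts only through C/EBPδ-inducible cells, and it was not tested over time in CTRL cells.

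SNAI1 (ENSG00000124216, chromosome 20, 49982980 to 49988886, plus strand), which encodes Snail, differed less. At 48 h it had 4.31, 4.37 and 4.56 CPM in C/EBPδ-inducible cells and 2.85, 3.23 and 2.95 CPM in CTRL cells, without overlap (log2 fold change 0.55, SE 0.14, adjusted p = 0.00498, edgeR). The differences at 0, 8 and 24 h had the same sign, 0.40, 0.41 and 0.42, with adjusted p = 0.0175, 0.0684 and 0.0125 (edgeR). The call at 48 h was lost in DESeq2 (adjusted p = 0.0323) and without any 1 of the 6 libraries except CTRL replicate 2 (highest adjusted p = 0.0213, edgeR). In 1 model of all 24 libraries SNAI1 was instead called at 0 h and 24 h too (adjusted p = 0.00532 and 0.00372, edgeR).

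ZEB1, a zinc finger repressor, was the most abundant of the transcription factors. It had 175.8, 177.5 and 175.9 CPM in C/EBPδ-inducible cells at 0 h and 98.2, 97.9 and 92.1 CPM in CTRL cells, so the replicates lay close together and far from the other line. The log2 fold change was 0.87 at 0 h (SE 0.035, adjusted p = 7.4e-14, edgeR), 0.92 at 8 h, 0.86 at 24 h and 0.81 at 48 h (adjusted p = 1.58e-07, edgeR). Thus ZEB1 was higher in C/EBPδ-inducible cells by a near constant factor of 1.75 to 1.90, both where CDH1 was lower and where it was higher than in CTRL cells. Exons of ZEB1 overlap those of the antisense gene ZEB1-AS1 by 396 bases, and ZEB1-AS1 averaged 6.34 to 10.3 CPM over the groups.

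VIM (ENSG00000026025, chromosome 10, 17228241 to 17237593, plus strand) had 5827, 5791 and 5920 CPM in C/EBPδ-inducible cells at 0 h against 6897, 7008 and 6918 CPM in CTRL cells. All 12 C/EBPδ-inducible libraries (5354 to 6265 CPM) lay below all 12 CTRL libraries (6601 to 7008 CPM). The differences were small, −0.26, −0.14, −0.23 and −0.35 on the log2 scale at 0, 8, 24 and 48 h, or 1.20-, 1.10-, 1.17- and 1.28-fold lower. All 4 were called (highest adjusted p = 0.0008, at 8 h, edgeR), although the call at 8 h was lost in DESeq2 (adjusted p = 0.0437) and without C/EBPδ-inducible replicate 2 or 3. VIM overlaps VIM-AS1 by 656 exon bases and ENSG00000234961 by 619, and VIM-AS1 averaged 38.6 to 54.8 CPM over the groups.

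**Figure D3:**
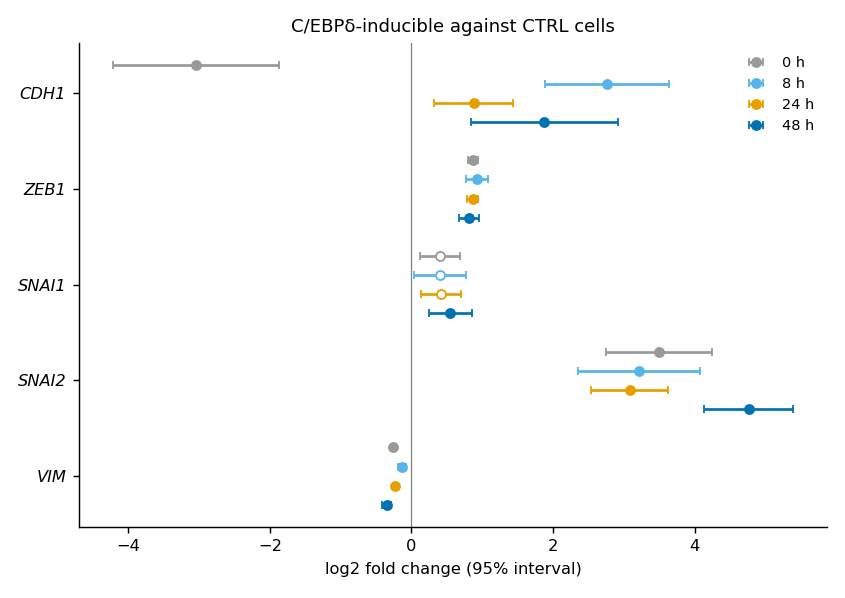
Log2 fold change of C/EBPδ-inducible against CTRL cells with its 95% interval at 0, 8, 24 and 48 h for the 5 members tested, filled where called. CDH1 crosses from −3.04 to 2.76 between 0 and 8 h, while ZEB1 stays between 0.81 and 0.92 and VIM between −0.35 and −0.14.

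The second comparison followed each line over time. In CTRL cells no member was called by edgeR or DESeq2 at 8 h (1.7% of all genes) or 48 h (30%), of 4 tested, and 2 were called at 24 h (6.06%). No member reached an unadjusted p of 0.05 at 8 h or 48 h either. At 24 h ZEB1 was lower by −0.16 (SE 0.038, adjusted p = 0.00992, edgeR) and VIM by −0.06 (SE 0.014, adjusted p = 0.00408, edgeR) on the log2 scale. Both calls were lost in DESeq2 (adjusted p = 0.0156 and 0.0308), and each was lost in 5 of 6 fits without 1 library (log2 fold change −0.19 to −0.14 and −0.07 to −0.06). ZEB1 kept its call without CTRL replicate 3 at 0 h and VIM without CTRL replicate 1 at 0 h.

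CDH1 did not pass the test in CTRL cells at any time. Its log2 fold changes from 0 h were −0.56, −0.11 and −0.06 at 8, 24 and 48 h, with 95% intervals of −1.75 to 0.63, −0.83 to 0.61 and −1.36 to 1.25. The group means were 1.05 ± 0.461, 0.709 ± 0.494, 0.953 ± 0.306 and 1.03 ± 0.920 CPM (SD, n = 3) at 0, 8, 24 and 48 h, so the spread within a group was as wide as any change.

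In C/EBPδ-inducible cells CDH1 was above its 0 h level at each later time, SNAI2 fell at 8 h and was higher at 48 h, and the changes of ZEB1 and VIM were small. Called members numbered 4 of 6 tested at 8 h (30.5% of all genes), 2 of 5 at 24 h (15.5%) and 4 of 5 at 48 h (38.7%). These numbers include CDH1, which passed the filter on low counts through the induced groups. The calls at 8 h were CDH1, ZEB1 and VIM higher and SNAI2 lower, those at 24 h CDH1 higher and ZEB1 lower, and those at 48 h CDH1 and SNAI2 higher and ZEB1 and VIM lower.

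CDH1 had 0, 0.138 and 0.225 CPM at 0 h and 4.42, 3.65 and 6.21 CPM at 8 h. It fell back to 1.40, 2.15 and 1.72 CPM at 24 h and stood at 4.82, 2.25 and 4.15 CPM at 48 h. All of these libraries but 1, replicate 1 at 24 h, were above the highest CTRL library at 0 h (1.497 CPM). From pooled counts, CDH1 was 38.1 times its 0 h level at 8 h (95% exact interval 18.2 to 95.9, counting error only), 14.7 times at 24 h (6.89 to 37.3) and 29.95 times at 48 h (14.3 to 75.4). The fitted log2 fold changes were 5.19 at 8 h (SE 0.39, adjusted p = 9.99e-10, edgeR), 3.81 at 24 h (SE 0.45, adjusted p = 5.8e-07, edgeR) and 4.85 at 48 h (SE 0.44, adjusted p = 9.33e-10, edgeR).

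These calls held in every alternative run. Without 1 library the log2 fold changes were 4.66 to 5.85 at 8 h, 3.27 to 4.47 at 24 h and 4.32 to 5.50 at 48 h, each highest without C/EBPδ-inducible replicate 3 at 0 h. Between the 2 libraries at 0 h and the 2 at 24 h that had MAL2 at 0, CDH1 was higher at 24 h by 3.10 on the log2 scale. These libraries were chosen after the counts were seen, so the value is a description. CDH1 passed the filter on low counts here through the induced groups, since its 3 libraries at 0 h held 7 counts in all. At its highest it reached 1.02 RPKM, in cells whose VIM was at least 1034 RPKM.

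The decrease between 8 h and 24 h and the increase from 24 h to 48 h were compared directly, after the levels had been seen. From 8 h to 24 h, 4 of 5 tested members were called (29.6% of all genes), and from 24 h to 48 h 3 of 5 (23.8%). CDH1 fell by 1.39 on the log2 scale from 8 h to 24 h (SE 0.21, adjusted p = 1.79e-05, edgeR) and rose by 1.03 from 24 h to 48 h (SE 0.24, adjusted p = 0.00208, edgeR). The first call held in every alternative run (highest adjusted p = 0.00973). The second was lost without C/EBPδ-inducible replicate 1 at 24 h or replicate 1 or 3 at 48 h (highest adjusted p = 0.0163, edgeR) and in 1 model of all 24 libraries (adjusted p = 0.0586). MAL2 was at 0 counts in replicates 1 and 3 at 24 h, but at 36, 6 and 30 counts at 8 h and 47, 7 and 23 at 48 h. Its part in either step was not tested.

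SNAI2 moved the opposite way at 8 h. Its libraries had 1.42, 1.36 and 1.49 CPM at 8 h, all below the 3 at 0 h, then 2.95, 3.10 and 3.09 CPM at 24 h and 4.82, 4.46 and 4.38 CPM at 48 h, the highest of the 4 times. The change from 0 h was −0.89 at 8 h (SE 0.21, adjusted p = 0.00174, edgeR), 0.22 at 24 h (adjusted p = 0.378, edgeR) and 0.78 at 48 h (SE 0.15, adjusted p = 0.000127, edgeR). From 8 h to 24 h it rose by 1.11 (adjusted p = 0.000109, edgeR), and from 24 h to 48 h by 0.56 (adjusted p = 0.00352, edgeR).

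The increase of SNAI2 at 48 h held in every alternative run. The decrease at 8 h was just lost in DESeq2 (adjusted p = 0.0105) and without C/EBPδ-inducible replicate 2 at 0 h (adjusted p = 0.015, edgeR), and the step from 24 h to 48 h was lost in DESeq2 (adjusted p = 0.0235) and in 5 of 6 fits without 1 library. At 48 h, therefore, both CDH1 and SNAI2, which encodes one of its repressors, were above their levels at 0 h.

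ZEB1 was highest at 8 h, with 198.1, 206.9 and 195.8 CPM, and lower at 24 h, with 149.4, 163.6 and 157.5 CPM, and 48 h, with 154.3, 164.1 and 170.9 CPM. Relative to 0 h these were changes of 0.18 (adjusted p = 8.15e-05, edgeR), −0.17 (adjusted p = 0.00125, edgeR) and −0.12 (adjusted p = 0.00429, edgeR) on the log2 scale, or factors of 1.13, 0.892 and 0.918. From 8 h to 24 h ZEB1 fell by 0.35 (SE 0.039, adjusted p = 4.58e-07, edgeR). In 1 model of all 24 libraries none of the 3 changes from 0 h was called (adjusted p = 0.0181, 0.0455 and 0.13). The call at 24 h was lost without C/EBPδ-inducible replicate 3 at 0 h (adjusted p = 0.0105, edgeR), and that at 48 h in 5 of 6 fits without 1 library, all but the fit without C/EBPδ-inducible replicate 3 at 48 h.

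VIM in C/EBPδ-inducible cells had 6265, 5967 and 6105 CPM at 8 h, 5740, 5728 and 5589 CPM at 24 h and 5423, 5354 and 5402 CPM at 48 h. It was lowest at 48 h, where the change from 0 h was −0.13 (SE 0.021, adjusted p = 1.9e-05, edgeR), a decrease to 0.916 of the starting level. The change was 0.06 at 8 h (adjusted p = 0.00098, edgeR) and −0.04 at 24 h (adjusted p = 0.192, edgeR). The call at 8 h was lost in DESeq2 (adjusted p = 0.0192) and without C/EBPδ-inducible replicate 1 or 3 at 8 h. From 8 h to 24 h VIM fell by 0.10 (adjusted p = 3.94e-06, edgeR) and from 24 h to 48 h by 0.09 (adjusted p = 0.00248, edgeR), and these calls were lost without replicate 3 at 8 h and without replicate 2 at 48 h, respectively. SNAI1 did not pass the test at any time in this line (−0.20, −0.10 and −0.15).

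CDH3 (ENSG00000062038, chromosome 16, 68636189 to 68727468, plus strand) encodes P-cadherin, a cadherin of basal epithelial layers, and lies next to CDH1. Its counts in C/EBPδ-inducible cells were 8, 12 and 1 at 0 h, 7, 14 and 36 at 8 h, 1, 1 and 3 at 24 h, and 7, 13 and 23 at 48 h. The replicates differed widely. The 24 h libraries lay below all those at 8 h and 48 h, and the other pairs of times overlapped. The change from 0 h to 8 h was 1.68 on the log2 scale (SE 0.61, adjusted p = 0.0319, edgeR) and was the only one within a line that passed the filter on low counts. In CTRL cells CDH3 was between 0.118 and 0.560 CPM at every time.

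The libraries with the most CDH3 also held KRT5, KRT6A and DSC3, keratins and a desmosomal cadherin of squamous epithelium. C/EBPδ-inducible replicate 3 at 8 h held 36 CDH3, 82 KRT5, 126 KRT6A and 49 DSC3 counts. Replicate 2 at 8 h and replicates 2 and 3 at 48 h held 40, 102 and 97 KRT5 counts, whereas the other 20 libraries held at most 3. DSC3 was less confined, with 12 counts in CTRL replicate 3 at 24 h and 10 in CTRL replicate 3 at 0 h. Over the 24 libraries KRT6A and DSC3 were the genes most like CDH3 (Pearson r = 0.892 and 0.840 on log2(CPM + 1), given as a description). KRT5 was chosen after its values were seen, and its part in the CDH3 values was not tested. Whether the counts of these 4 genes in those libraries include reads from other samples was not tested either. Without the filter on low counts CDH3 was called in C/EBPδ-inducible cells at 8 h (1.71, adjusted p = 9.2e-05, edgeR), and without C/EBPδ-inducible replicate 1 at 8 h it was called with the filter (2.17, adjusted p = 0.00363, edgeR). In 1 model of all 24 libraries CDH3 was also called from 8 h to 24 h (−3.83, adjusted p = 0.00063, edgeR) and from 24 h to 48 h (3.16, adjusted p = 0.00607, edgeR).

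The third comparison asked whether the change from 0 h differed between the lines, by the interaction of line and time. CDH1 was the only member called, as 1 of 6 tested at 8 h (1.66% of all genes), 1 of 5 at 24 h (5.84%) and 1 of 6 at 48 h (5.54%). Its change was larger in C/EBPδ-inducible cells by 5.79 at 8 h (SE 0.82, adjusted p = 0.00073, edgeR), 3.93 at 24 h (SE 0.65, adjusted p = 0.000147, edgeR) and 4.90 at 48 h (SE 0.98, adjusted p = 0.00254, edgeR) on the log2 scale. The call at 24 h was lost in 1 model of all 24 libraries (adjusted p = 0.0183). The call at 48 h was lost without CTRL replicate 2 at 0 h, C/EBPδ-inducible replicate 1 at 0 h or C/EBPδ-inducible replicate 2 at 0 h (log2 4.33 to 5.70 over all 12, highest adjusted p = 0.0133, edgeR). Without C/EBPδ-inducible replicate 3 at 0 h the interactions were 6.44, 4.59 and 5.56, and without CTRL replicate 2 at 48 h the last was 5.70. All 3 interactions share the 0 h libraries, in which CDH1 held 7 counts in C/EBPδ-inducible cells and 55 in CTRL cells.

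For the other members the change did not pass the test of a difference between the lines. The intervals were narrow for ZEB1, whose changes differed by 0.04 (95% interval −0.13 to 0.21) at 8 h, −0.0018 (−0.11 to 0.11) at 24 h and −0.08 (−0.23 to 0.08) at 48 h. They were wide for SNAI2, at −0.30 (−1.89 to 1.29), −0.42 (−1.51 to 0.67) and 1.24 (−0.10 to 2.59), since CTRL cells had few SNAI2 counts. VIM came closest, at 0.11 at 8 h (adjusted p = 0.0196, edgeR) and −0.12 at 48 h (adjusted p = 0.0165, edgeR), and both were called in 1 model of all 24 libraries (adjusted p = 0.00407 and 0.00451). For CDH3 the difference was 1.87 (−0.30 to 4.05) at 8 h and 1.58 (−0.23 to 3.39) at 48 h, and it was not tested at 24 h.

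**Figure D4:**
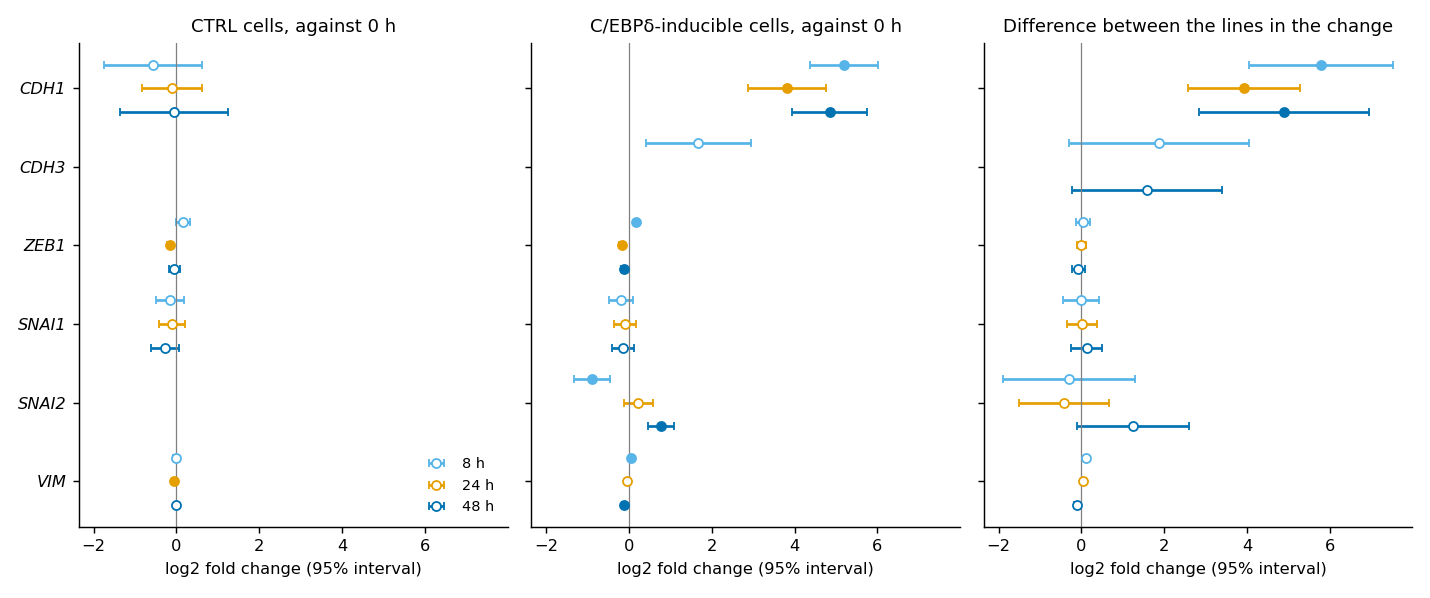
Log2 fold change from 0 h with its 95% interval at 8, 24 and 48 h in CTRL cells, in C/EBPδ-inducible cells, and as the difference between the lines, filled where called and absent where the gene did not pass the filter. CDH1 is the only gene called in the right panel, at 5.79, 3.93 and 4.90.

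The remaining members were too low to test in any comparison. CDH2 (ENSG00000170558, chromosome 18, 27932879 to 28177946, minus strand), N-cadherin, had 38 counts in the 24 libraries together and at most 6 in one. CDH11 (ENSG00000140937, chromosome 16, 64943753 to 65126112, minus strand), a cadherin of mesenchyme and bone, had 8 counts and at most 4 in one library. ZEB2 (ENSG00000169554, chromosome 2, 144364364 to 144521057, minus strand), the second ZEB factor, had 22 counts and at most 4. TWIST1 (ENSG00000122691, chromosome 7, 19020991 to 19117636, minus strand), a basic helix-loop-helix factor, had 2 counts, both in C/EBPδ-inducible cells, and 0 in 12 CTRL libraries, which allows a level of up to 0.0131 CPM. A change in these 4 genes was not detectable at this depth. Both lines thus had high VIM and ZEB1 with hardly any N-cadherin, ZEB2 or TWIST1 RNA.

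The partners and pathways of the members were counted in lists that leave out the 10 genes themselves. The counts at 0 h are to be read beside the 43.9% of all genes called between the lines. Of 11 tested adherens junction partners, 4 had higher and 6 had lower levels in the inducible line, with a median log2 fold change of −0.32 beside 0.0098 for all genes. CTNNA1, the α-catenin that links cadherins to actin, was lower (−0.44), and CTNND1, the p120 catenin that stabilizes cadherins at the membrane, was slightly higher (0.14), whereas CTNNB1 (β-catenin) had a difference of 0.03 (adjusted p = 0.369, edgeR).

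Of 17 epithelial junction and polarity genes, 2 were higher and 7 lower at 0 h (median −0.27). The tight junction protein OCLN was lower by −2.30, while CLDN1, another protein of tight junctions, was higher by 3.77. Of 7 epithelial regulators 1 was higher and 4 lower (median −0.62), and of 7 ductal and epithelial markers 0 were higher and 5 lower (median −1.05). The markers included the simple-epithelium keratins KRT8 (1561 CPM in CTRL and 74.4 CPM in C/EBPδ-inducible cells), KRT18 (1155 and 113.4 CPM) and KRT19 (182.4 and 16.1 CPM).

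Of 16 mesenchymal genes 8 were higher and 5 lower (median 0.36), of 8 other EMT transcription factors 5 were higher and 2 lower (0.24), and of 12 TGF-beta and BMP genes 6 were higher and 3 lower (0.41). Of 5 other classical and type II cadherins 1 was higher and 1 lower (0.41), and of 13 corepressors of SNAI1 and the ZEB proteins 3 were higher and 2 lower (0.05). Among the mesenchymal genes COL5A1, a fibrillar collagen, and FSCN1, an actin-bundling protein, were higher by 1.585 and 3.24, and COL1A2 was lower by −1.41.

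From 0 h to 48 h in C/EBPδ-inducible cells, 6 of 12 adherens junction partners rose and 0 fell (median 0.16, all genes 0.0050). They included JUP (0.68), the plakoglobin that binds cadherin tails, and VCL (0.33), vinculin, which ties junctions to actin. Of 16 epithelial junction and polarity genes 7 rose and 3 fell (0.36), and of 17 mesenchymal genes 6 rose and 3 fell (−0.0029). In CTRL cells over the same time 4 of 11 adherens junction partners rose and 1 fell, and 9 of 19 epithelial junction and polarity genes rose and 0 fell, with JUP higher by 1.555. Of all genes, 38.7% were called in C/EBPδ-inducible cells and 30% in CTRL cells over this time, in either direction.

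**Figure D5:**
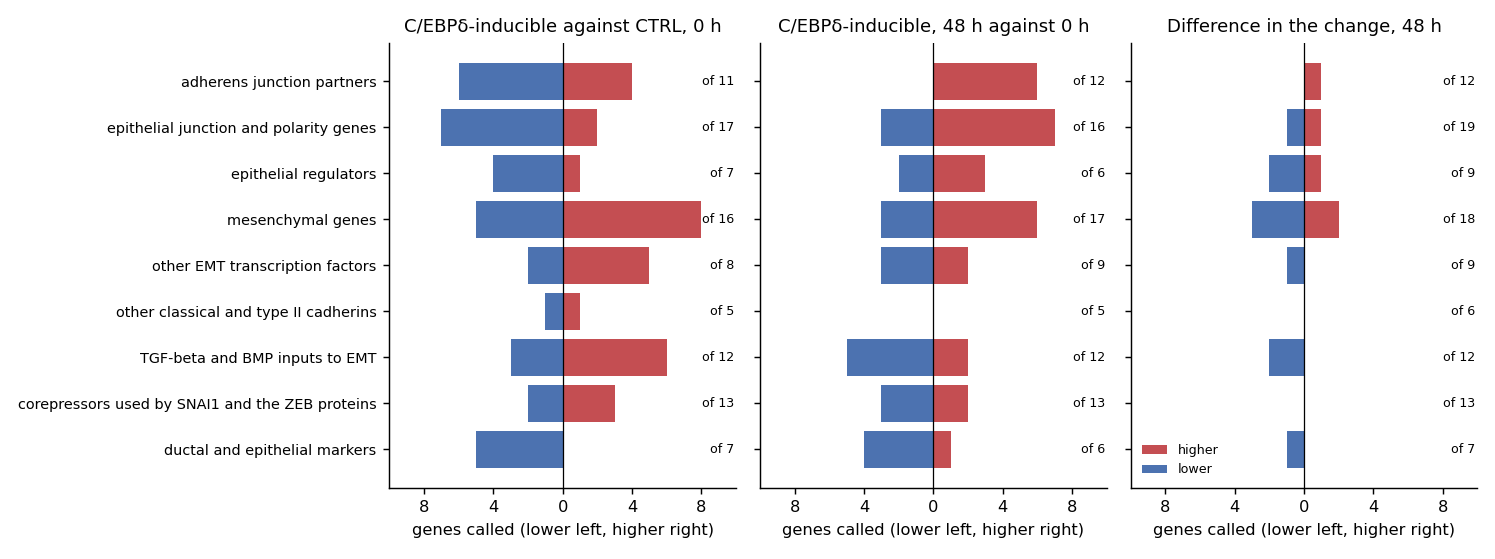
Number of genes called higher (right, red) and lower (left, blue) in each list at 0 h between the lines, at 48 h against 0 h in C/EBPδ-inducible cells, and in the difference between the lines at 48 h, with the number tested at the right of each row. In the last panel no list has more than 3 genes called in 1 direction.

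Where the change was tested against that in CTRL cells, few list genes differed at 8 h, and CLDN1 and EHF were the only ones called. Of all genes, 1.66% were called in this test at 8 h, 5.84% at 24 h and 5.54% at 48 h. At 24 h 5 of 7 ductal and epithelial markers were lower, among them MUC1, KRT19 and KRT8, and at 48 h 1 of 7 was. Of the adherens junction partners VCL alone was called, at 48 h, higher by 0.46 (SE 0.037, adjusted p = 8.19e-08, edgeR). TAGLN, an actin-binding protein of smooth muscle and mesenchyme, fell in CTRL cells from 10.3 CPM at 0 h to 4.23 CPM at 48 h and stood at 15.8 and 15.9 CPM in C/EBPδ-inducible cells, a difference of 1.28 on the log2 scale. TGFB3, a ligand of the TGF-beta pathway, went from 6.55 to 2.99 CPM in C/EBPδ-inducible cells and from 4.25 to 4.51 CPM in CTRL cells.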

How the data were processed

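Total RNA of MIA PaCa-2 CTRL and C/EBPδ-inducible cells was depleted of ribosomal RNA and sequenced by the authors. Reads were trimmed with Trimmomatic (the submitters' processing notes give version 0.36 and the methods of the study another), aligned to GRCh38 (Ensembl 84) with HISAT2 and counted per gene with HTSeq. The deposited values are raw counts, and the strand setting of the counting is not given in the sources used here, so overlapping antisense genes cannot be separated. Gene symbols and positions were taken from GENCODE v44, which matched 56558 of 60675 identifiers. Sequences were taken from RefSeq tables.

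Counts were analysed with edgeR 4.0.16 in R 4.3.3, with TMM normalization, filterByExpr on the libraries of each comparison, the quasi-likelihood test and Benjamini-Hochberg adjustment over all genes tested. Genes were called at an adjusted p below 0.01, the threshold used in the study. Groups followed the sample labels. The 13 comparisons were the lines at each time, each later time against 0 h within a line, and the interaction of line and time. Comparisons of 24 h with 8 h and 48 h with 24 h, and the fit limited to libraries with MAL2 at 0 counts, were added after the data were seen. Alternatives were DESeq2 1.42.0, no filter, 1 model of all 24 libraries, a replicate block and each library left out in turn. For the lines at 24 h, an ordinary analysis of variance per gene on log2(CPM + 1) was added.

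The members and the 12 gene lists (170 genes) were chosen with earlier results of these data known. All 10 members were named, as were overlapping genes, the called genes of each list with the 3 largest interactions at 24 or 48 h, and the genes most like a member. The values of 1 list gene are not reported here. Other genes named (list genes in single comparisons, MAL2, ST14, KRT5 and MIR200CHG) were chosen after their values were seen.

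Replicate numbers were checked as pairs by correlating deviations from group means. Every pair was above 0.1 only for CTRL at 24 h against 0 h (0.143 to 0.19), and there the block called the same number of members. On simulated counts for C/EBPδ-inducible cells at 8 h against 0 h (15148 genes), 81% of 100 genes changed by 1 on the log2 scale and 99% of 97 changed by 2 were recovered, with 4 false calls. For the lines at 48 h, recovery was 88.4% of 95 and 100% of 97, with 8 false calls. The interaction at 48 h recovered less, 70.4% of 98 and 92.9% of 98, with 1 false call. Intervals on pooled counts cover counting error only.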

Additional observations from a re-analysis of the deposited data

Results flagged for a closer look

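The following changes from 0 h differed between the lines by the interaction test (edgeR, adjusted p below 0.01). Each value is the change in C/EBPδ-inducible cells minus that in CTRL cells, on the log2 scale. CDH1 had 5.79 at 8 h, 3.93 at 24 h and 4.90 at 48 h.

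Among junction genes, CLDN1 had 0.89 at 8 h, 0.70 at 24 h and 0.73 at 48 h, and its level was 7.18 CPM in CTRL and 99.0 CPM in C/EBPδ-inducible cells at 0 h. CLDN4, another claudin, had −0.89 at 24 h and −1.20 at 48 h, PKP3, a desmosomal plakophilin, had −0.66 at 24 h, and VCL had 0.46 at 48 h.

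Among regulators of epithelial genes, EHF, an ETS factor, had 0.50 at 8 h, 0.75 at 24 h and 0.67 at 48 h. KLF4, a Krüppel-like factor, had −0.28 at 24 h and −0.42 at 48 h, and TFAP2A had −0.39 at 48 h. Of the other transcription factors, ETS1 had −0.53 at 24 h and −0.33 at 48 h, SOX9 had −0.56 at 24 h and RUNX2 had 0.54 at 24 h.

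Among mesenchymal genes, S100A4 had −0.42 at 24 h and −0.38 at 48 h, COL1A2 had −0.39 at 24 h and −0.32 at 48 h, and TAGLN had 1.28 at 48 h. In the TGF-beta list, TGFB3 had −1.35 at 24 h and −1.215 at 48 h, and TGFBR3, a co-receptor, had −0.30 at 24 h and −0.44 at 48 h. Among ductal and epithelial markers, KRT8 had −0.74 at 24 h and −0.46 at 48 h, KRT19 had −0.84 at 24 h and MUC1, a membrane mucin, had −1.07 at 24 h.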

How the results depend on the processing

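No called value of a member reversed under any alternative. Other named genes were not followed in the alternatives. Of 419 single-gene values, leaving out 1 library left 206 on the same side of the threshold, took 46 below it and 3 past it, and the other alternatives gave 139, 20 and 5. The sign changed in 28 values that were called in neither fit. Called members numbered 3 in DESeq2 against 5 between the lines at 48 h, and 2 against 4 in C/EBPδ-inducible cells at 8 h. For CTRL cells at 24 h, 2 called members became 0 in DESeq2, 1 without the filter and 0 in the model of all 24 libraries. That model gave 1 in place of 2 in C/EBPδ-inducible cells at 24 h, and 2, 0 and 2 in place of 1 each for the interactions at 8, 24 and 48 h. The cause of these shifts was not tested. DESeq2 gave CDH1 no adjusted p in the interactions (log2 5.89, 4 and 4.98, unadjusted p = 4.83e-08, 1.46e-07 and 0.000235), so no count is given there. CDH1 between the lines at 24 h had adjusted p = 0.0894 by analysis of variance and 0.154 in the model of all 24 libraries.

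Without 1 library, called members ranged from 3 to 5 between the lines at 48 h, 0 to 1 in CTRL cells at 24 h, 1 to 2 in C/EBPδ-inducible cells at 24 h, 1 to 2 and 0 to 1 for the interactions at 8 and 48 h, and 1 to 4 from 24 h to 48 h. The replicate block, given the same numbers, called 4 members between the lines at 0 h and changed no count of members.

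Over all genes, CTRL cells at 8 h had 259 calls against 430 in DESeq2, 843 without the filter, 1229 in the model of all 24 libraries and 87 with the replicate block, and the interaction at 8 h had 269 against 423, 936, 441 and 162. The model of all 24 libraries gave 582 against 921 for CTRL cells at 24 h and 603 against 948 for the interaction at 24 h, and analysis of variance gave 4317 against 7360 between the lines at 24 h. Depth left CDH2, CDH11, ZEB2 and TWIST1 untested, and CDH1, CDH3 and SNAI2 had at most 33, 12 and 10 counts per CTRL library.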

Other observations

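Over the 24 libraries and among 17022 genes, those whose levels most resembled those of CDH1 were C9orf72, CCNJ, PXK, RAB1A and OMA1 (Pearson r of log2(CPM + 1) = 0.884, 0.856, 0.838, 0.830 and 0.817), none of them a gene of the lists. ZEB1 was most like BMAL2 and PAX8-AS1 (0.987 and 0.983), SNAI2 like IGFBP5 and LINC02643 (0.980 and 0.978), VIM like HIVEP2 and CBR3 (0.973 and 0.967), and SNAI1 like HNRNPR and DDX46 (0.9325 and 0.928). The libraries share 2 lines, 4 times and their depth, so these values are descriptions.

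Genes within 1 Mb of a member were also compared between the lines at 0 h, a choice made after the data were seen, where 43.9% of all genes were called. Near CDH1, 5 of 40 tested genes had higher and 7 had lower levels in the inducible line (−0.64 to 0.95 on the log2 scale). Near ZEB1, 5 of 10 were higher and 1 lower, with a median of 0.12 and a highest value of 2.95. Near SNAI2, 1 of 3 was higher, by 0.23, beside the 3.50 of SNAI2 itself.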
